A study of Mus musculus with 2 samples.

Results

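The genes of 10 cardiac transcription factors, Gata4, Gata5, Gata6, Nkx2-5, Tbx5, Tbx20, Hand1, Hand2, Mef2c and Isl1, were examined for HIRA binding in the embryonic mouse heart. They were chosen by name, as factors that build the heart, out of 55413 genes of GENCODE release M21, of which 21938 code for protein, and all 10 were found in it. Every HIRA peak inside the annotated gene or within 100 kb of either end was taken. This gave 10 of the 6624 peaks of the list, and they lay at 6 of the 10 genes.

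HIRA ChIP-seq had been performed on hearts of wild type CD1 embryos at E12.5. In all, 30 hearts from 2 pregnant mice were pooled, fixed with EGS (1.5 mM, 45 min) and formaldehyde (1%, 15 min), and precipitated with the antibody WC15 against HIRA. Its control was input DNA taken from that pool, so there was 1 library of each kind and no replicate. A peak is a stretch where ChIP reads were called above input. The list gives positions only. Heights, read depth and the error between hearts are therefore unknown here, no test over samples was possible, and every interval below covers counting error only. The embryos are from an outbred stock and a whole heart holds several cell types, which the list cannot separate.

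HIRA is a histone chaperone that places the variant histone H3.3 on chromatin outside DNA replication, at active genes among other places. GATA, NK2, T-box, HAND, MEF2 and LIM-homeodomain factors bind DNA at enhancers of heart genes, often side by side and in complexes with each other, and they activate one another's genes in the cardiac lineage. Their genes are known for regulatory sequences that lie both beside the promoter and many kilobases away.

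HIRA peaks lay close to 4 of the 10 genes. Gata4 held a peak inside its annotated body, and Gata5, Nkx2-5 and Hand2 each had one less than 5 kb beyond the end of the gene. Within 5 kb, bodies included, 4 of 10 genes thus had a peak, against 11.1% of all protein-coding genes and 6.99% of all annotated genes. In the body alone the count was 1 of 10 against 8.90%. Within 100 kb the count was 6 of 10, against 45.7%, with Isl1 and Gata6 added. Nkx2-5, Hand2 and Isl1 had more than one peak in that window, which 13.7% of protein-coding genes had. With 10 genes these counts are small. The 95% Wilson interval of the share within 5 kb ran from 16.8 to 68.7%, and that of the share within 100 kb from 31.3 to 83.2%, which includes the value of all coding genes. With only the 3233 peaks wider than the median, the count within 5 kb was 1 of 10 (Gata5) against 6.12% of coding genes. With each gene cut to its coding transcript of greatest summed exon length it was 3 of 10 against 10.5%, as Gata4 was then 26.1 kb from its peak.

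**Figure D1:**
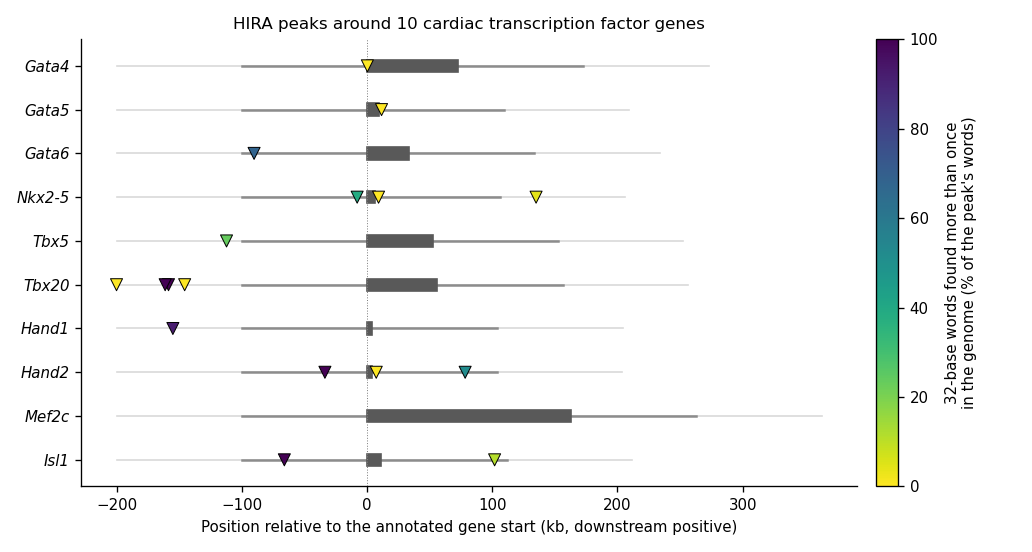
HIRA peaks (triangles) within 200 kb of the 10 genes, by the position of the peak midpoint in kb from the annotated gene start, with each gene turned so that transcription runs to the right. Dark boxes are gene bodies, the grey line marks 100 kb and the pale line 200 kb beyond them, and colour gives the share of the peak's 32-base words found more than once in the genome. Peaks drawn in yellow, with few or no such words, sit beside Gata4, Gata5, Nkx2-5 and Hand2 and beyond 100 kb of Nkx2-5 and Tbx20, and Mef2c has no peak in the window drawn.

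The peaks were densest just beside the genes. In the 10 kb on each side of the gene bodies there were 4 peaks in 0.2 Mb, a density of 20.0 peaks per Mb (exact 95% Poisson interval 5.45 to 51.2), compared with 3.02 per Mb in the same bands of all protein-coding genes. From 10 to 100 kb the density was 2.78 per Mb (0.902 to 6.48) against 2.71, and from 100 to 200 kb it was 3.50 per Mb (1.41 to 7.21) against 2.68. Inside the gene bodies it was 2.42 per Mb (0.0613 to 13.5) against 2.36. Of these 4 bands, the nearest 10 kb was the only one in which the interval of the 10 genes did not include the density of all coding genes. Its 4 peaks were those of Gata5 and Hand2 and a pair at Nkx2-5, which the Poisson interval treats as independent. Genes and bands were chosen with earlier results of these data known, so the interval describes these peaks and is not a test. Of the 10 peaks, 4 lay upstream of the gene, 5 downstream and 1 in the body.

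**Figure D2:**
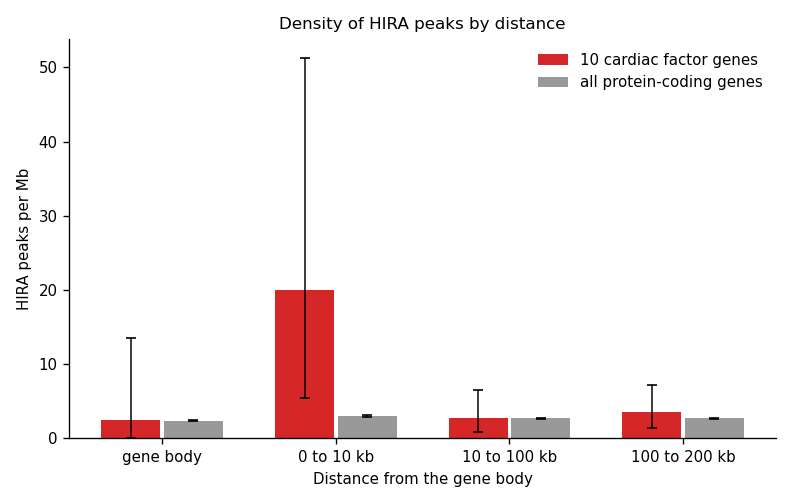
HIRA peaks per Mb in the gene body and in 3 bands of distance on each side of it, for the 10 cardiac factor genes and for all 21938 protein-coding genes. Bars start at 0 and the error bars are exact 95% Poisson intervals of the peak counts. Only in the band of 0 to 10 kb does the interval of the 10 genes (5.45 to 51.2 per Mb) lie above the value of all coding genes (3.02 per Mb). This is a description of 4 peaks, of which Nkx2-5 gave a pair, and not a test.

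GATA4 is a zinc finger factor needed for the formation of the heart tube and for cardiomyocyte growth, and GATA5 is a relative expressed in endocardium and in heart precursors. Gata4 (ENSMUSG00000021944.15) covers 63198922 to 63271692 of chromosome 14 on the minus strand (72.8 kb). Its peak was 172 bases wide, and its midpoint lay 260 bases inside the most distal annotated gene start. There it fell in the only intron of the short coding transcript ENSMUST00000132122.1, 66 bases from the end of its exon 1. The short coding transcripts ENSMUST00000137244.7 and ENSMUST00000156782.1 start 308 bases from the peak midpoint, and for these the peak is upstream. The 2 coding transcripts with 7 exons start 26.2 kb from the peak midpoint, and for these too the peak is upstream. Gata5 (ENSMUSG00000015627.5, chromosome 2, 180325133 to 180334699, minus strand) had a peak of 295 bases, 1.87 kb beyond the end of the gene and 11.6 kb from its start, in intergenic sequence. The sequences of both peaks are given because they are the nearest to any GATA factor gene. They are on the plus strand of GRCm38 (mm10), and capitals mark tandem repeats of 15 or more bases, with a unit of at most 6 bases and no mismatch.
Gata4 peak, chr14:63271347-63271518: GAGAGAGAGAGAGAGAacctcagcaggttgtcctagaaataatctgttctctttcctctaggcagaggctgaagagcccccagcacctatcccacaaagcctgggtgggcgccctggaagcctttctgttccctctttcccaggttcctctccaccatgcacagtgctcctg
Gata5 peak, chr2:180322973-180323267: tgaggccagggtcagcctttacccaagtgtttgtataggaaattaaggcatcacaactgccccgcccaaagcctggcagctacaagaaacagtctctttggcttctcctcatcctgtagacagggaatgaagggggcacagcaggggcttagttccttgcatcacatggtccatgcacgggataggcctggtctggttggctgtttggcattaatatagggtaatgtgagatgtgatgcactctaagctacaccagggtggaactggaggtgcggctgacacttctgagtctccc
The Gata4 peak opened with 16 bases of a GA repeat and held 5 overlapping matches to GAGAGAGA, whereas the Gata5 peak had no such repeat and no soft-masked base (a base that the assembly writes in lower case as repeat). GC content was 55.2% at Gata4 and 52.2% at Gata5. All 32-base words of both peaks occurred once in the genome, counting both strands.

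GATA6, the third GATA factor of the heart, acts in part together with GATA4 and is needed for the outflow tract. Gata6 (ENSMUSG00000005836.10, chromosome 18, 11052064 to 11085635, plus strand) had 1 peak within 100 kb, 90.1 kb upstream of the gene start, in intergenic sequence. It was 159 bases wide, near the lower limit of the list. Of its bases 94.3% were soft-masked, it held a GA repeat of 36 bases, and 68.0% of its 32-base words occurred more than once in the genome. No other protein-coding gene lies within 100 kb of Gata6.

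NKX2-5 is an NK2 homeodomain factor and an early marker of the cardiac lineage, and its gene is often used to trace heart progenitors. Nkx2-5 (ENSMUSG00000015579.5) covers 26838664 to 26845009 of chromosome 17 on the minus strand and had a peak on each side. The downstream peak (172 bases) lay 2.76 kb beyond the gene end, and the upstream peak (268 bases) lay 7.76 kb before the gene start. Both were intergenic, and for both Nkx2-5 was the nearest protein-coding gene.

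The sequences of these peaks are given since they flank the same gene and differ in kind, with plus strand, build and capitals as for Gata4.
Nkx2-5 downstream peak, chr17:26835732-26835903: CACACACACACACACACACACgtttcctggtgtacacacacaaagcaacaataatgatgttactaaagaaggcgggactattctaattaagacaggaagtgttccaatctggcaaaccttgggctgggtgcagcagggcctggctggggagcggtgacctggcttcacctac
Nkx2-5 upstream peak, chr17:26852771-26853038: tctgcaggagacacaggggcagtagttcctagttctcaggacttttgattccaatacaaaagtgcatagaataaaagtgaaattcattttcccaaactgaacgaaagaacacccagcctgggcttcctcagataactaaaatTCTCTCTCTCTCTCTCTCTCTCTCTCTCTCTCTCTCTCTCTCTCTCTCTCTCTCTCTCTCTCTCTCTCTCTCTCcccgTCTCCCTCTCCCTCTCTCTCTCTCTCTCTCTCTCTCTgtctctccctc
The downstream peak opened with 21 bases of a CA repeat and held no other tandem repeat of 15 or more bases. Its GC content was 50.6%, and 27.9% of its bases were soft-masked. All of its 32-base words were found once. The upstream peak held a TC repeat of 74 bases, which is GA on the opposite strand, and 43 overlapping matches to TCTCTCTC. Of its bases 50.0% were soft-masked, and 38.8% of its 32-base words occurred more than once, the commonest of them 817425 times. It shared at least one word with 473 other peaks of the list. The CA peak shared none.

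HAND1 and HAND2 are basic helix-loop-helix factors, the former prominent in the left and the latter in the right ventricle and outflow tract. Hand2 (ENSMUSG00000038193.4, chromosome 8, 57320983 to 57324633, plus strand) had 3 peaks within 100 kb, the most of the 10 genes, and no other protein-coding gene lies in that window. The nearest peak (164 bases) was 3.61 kb downstream. Another (213 bases) lay 33.5 kb upstream in an intron of Hand2os1, a long non-coding RNA gene on the opposite strand, and the third (170 bases) lay 74.6 kb downstream. The third was the only one of the 10 peaks whose nearest protein-coding gene was another gene, Scrg1 at 56.5 kb. Hand1 (ENSMUSG00000037335.13, chromosome 11, 57828705 to 57832818, minus strand) had none within 100 kb. Its nearest peak (252 bases) lay 154.9 kb upstream, only 21.1 kb from Larp1.

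The nearest and the farthest of the Hand2 peaks stood at opposite ends of the range in base composition, and the sequence of the nearest is given.
Hand2 peak at 3.61 kb, chr8:57328247-57328410: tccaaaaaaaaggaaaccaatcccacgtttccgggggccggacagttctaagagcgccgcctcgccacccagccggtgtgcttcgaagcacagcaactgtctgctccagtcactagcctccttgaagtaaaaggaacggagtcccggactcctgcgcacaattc
The near peak had the highest GC content of the 10 (56.7%) and 11 CpG dinucleotides, 0.857 of the number that its C and G content would give, where the median of all peaks of the list was 0.130. It had no tandem repeat of 15 bases and was 13.4% soft-masked. The far peak had the lowest GC content (24.1%) and no CpG. It was 86.5% soft-masked, and 51.8% of its 32-base words occurred more than once.

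ISL1 is the LIM-homeodomain factor of the second heart field, the progenitors that add the outflow tract and right ventricle. Isl1 (ENSMUSG00000042258.13, chromosome 13, 116298281 to 116309689, minus strand) had 2 peaks within 100 kb and none within 50 kb, and no other protein-coding gene lies within 100 kb. The upstream peak was 65.8 kb from the gene. At 419 bases it was the widest of the 10 and ranked 117 of 6624 by width. The downstream peak (167 bases, 90.4 kb away) closed with 40 bases of a GTG repeat. All bases of the upstream peak were soft-masked and all of its 32-base words occurred more than once, with a median of 12717 copies. It shared words with 578 other peaks, more than any other peak described here.

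The upstream peak of Isl1 shared one stretch of sequence with the upstream peak of Hand2 and another with the nearest peak of Hand1. The Hand2 peak aligned over its whole length of 213 bases to the Isl1 peak with 194 identical bases (91.1%) and no gap. The last 90 bases of the Hand1 peak aligned to the first 90 of the Isl1 peak with 87 identical bases (96.7%). The stretches are given to show this likeness, on the plus strand, with capitals at the 19 and the 3 bases that differ within each pair.
Hand2, chr8:57287242-57287454: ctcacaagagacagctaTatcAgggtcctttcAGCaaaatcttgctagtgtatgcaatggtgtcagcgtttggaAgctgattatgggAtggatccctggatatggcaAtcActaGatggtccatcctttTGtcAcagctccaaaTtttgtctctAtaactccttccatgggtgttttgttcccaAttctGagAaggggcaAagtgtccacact
Isl1, chr13:116375707-116375919: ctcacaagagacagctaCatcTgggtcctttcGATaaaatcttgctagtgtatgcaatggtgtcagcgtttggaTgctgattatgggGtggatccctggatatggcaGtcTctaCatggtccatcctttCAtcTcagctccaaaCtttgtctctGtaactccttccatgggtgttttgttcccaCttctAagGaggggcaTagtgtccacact
Hand1, chr11:57987915-57988004: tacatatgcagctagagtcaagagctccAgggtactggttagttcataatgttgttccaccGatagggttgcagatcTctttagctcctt
Isl1, chr13:116375521-116375610: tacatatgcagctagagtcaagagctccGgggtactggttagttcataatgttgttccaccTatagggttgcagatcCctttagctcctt
Of the 32-base words of the Hand2 peak 100% occurred more than once in the genome, and of those of the Hand1 peak 91.9%. The Hand2 peak shared words with 229 other peaks of the list and the Hand1 peak with 380. A read from such sequence has many possible places of origin, and how reads with several places were assigned is not given in the sources used here.

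TBX5 and TBX20 are T-box factors of the chambers and valves, and TBX5 acts with NKX2-5 and GATA4 at heart enhancers. Neither gene had a peak within 100 kb. Tbx5 (ENSMUSG00000018263.11, chromosome 5, 119832668 to 119885219, plus strand) was the first outside that limit. Its nearest peak (183 bases) was 112 kb upstream, between Tbx5 and its neighbour Tbx3 and nearer to the latter (35.6 kb). The peak held a CA repeat of 38 bases. In the RefSeq annotation of the same assembly Tbx5 starts farther upstream, and the peak is then 76.0 kb away. For comparison, the genes just inside the limit were Isl1, with its second peak at 90.4 kb, and Gata6, with its peak at 90.1 kb. Tbx20 (ENSMUSG00000031965.15, chromosome 9, 24718138 to 24774303, minus strand) had its nearest peak 146 kb upstream. This peak (159 bases) had no soft-masked base, no tandem repeat of 15 or more bases and no word found more than once. From there to 200 kb upstream Tbx20 had 4 peaks, more than any of the other genes at that distance. The middle ones, at 158 and 161 kb, were soft-masked throughout and made of multi-copy words, and the outermost, at 199.7 kb, was 696 bases wide with 7.90% soft-masked and no multi-copy word.

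MEF2C is a MADS-box factor that drives muscle genes and is needed for looping of the heart tube. Mef2c (ENSMUSG00000005583.16, chromosome 13, 83504034 to 83667080, plus strand) is the longest of the 10 genes (163 kb) and was the farthest from a peak. The nearest lay 366 kb upstream in an intron of the non-coding gene 2310067P03Rik. It was 181 bases wide, soft-masked throughout, and all of its words were multi-copy. Of all protein-coding genes 86.7% were at least as near to a peak as Mef2c.

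Ordered by distance from the gene body, the genes ran from Gata4 (0 kb) through Gata5, Nkx2-5 and Hand2 (1.87 to 3.61 kb), Isl1 and Gata6 (65.8 and 90.1 kb), Tbx5, Tbx20 and Hand1 (112 to 154.9 kb) to Mef2c (366 kb). The share of coding genes at least as near was 8.90% at Gata4, 9.79% at Gata5, 10.2% at Nkx2-5 and 10.6% at Hand2. It was 35.2% at Isl1, 42.7% at Gata6, 48.9% at Tbx5, 57.2% at Tbx20 and 59.3% at Hand1. The genes thus formed a near group of 4 and a far group of 6, with nothing between 3.61 and 65.8 kb. The median distance was 78.0 kb (order-statistic 95% interval 1.87 to 154.9 kb, n = 10) against 115.9 kb over all coding genes, a difference within that interval. The median length of the 10 genes was 22.5 kb against 17.4 kb over all coding genes. Of the 4 near genes, Gata5, Nkx2-5 and Hand2 were under 10 kb long. Whether gene length bears on the distance to a peak was not tested.

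**Figure D3:**
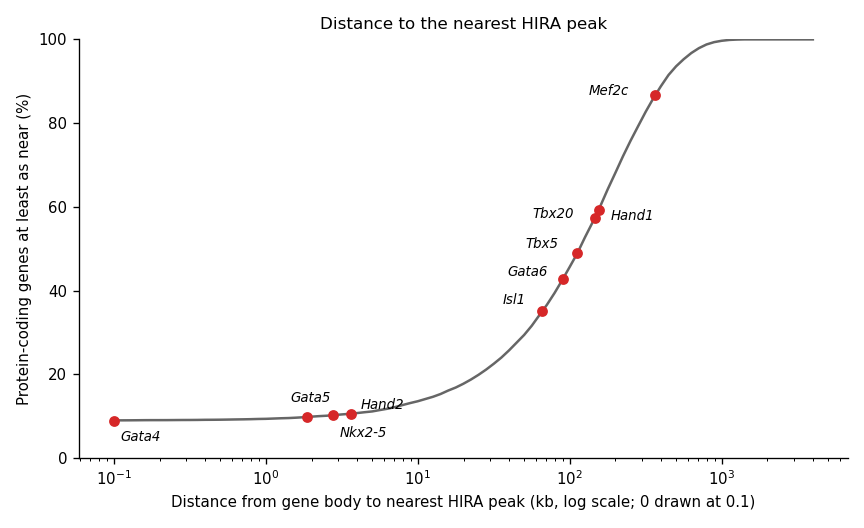
The line gives the share of 21938 protein-coding genes whose nearest HIRA peak is at or below the distance on the x axis (kb, log scale, with 0 drawn at 0.1), and red points mark the 10 cardiac factor genes. Gata4, Gata5, Nkx2-5 and Hand2 sit at 8.90 to 10.6%, and the other 6 genes lie from 35.2 to 86.7%.

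Peaks less than 5 kb from the genes and peaks at 5 to 100 kb differed in sequence. The 4 peaks inside a gene or less than 5 kb from it had a GC content of 50.6 to 56.7% and were 0 to 27.9% soft-masked. The 6 peaks at 5 to 100 kb had a GC content of 24.1 to 47.5% and were 50.0 to 100% soft-masked. The groups thus did not overlap in either measure. In the whole list 35.3% of peaks were under 50.0% soft-masked, and the median GC content was 45.6%. Among all peaks inside or less than 5 kb from a protein-coding gene these values were 47.1% and 46.9%. The upper quartile of GC content was 50.0% in the whole list and 51.3% among those peaks near coding genes. A GC content like that of the 4 near peaks was therefore not rare in the list. None of the 4 near peaks held a 32-base word found more than once in the genome, and each of the 6 others did, at 11.0 to 100% of their words. In the whole list 14.6% of peaks were free of multi-copy words, and among the 2845 peaks inside or less than 5 kb from a protein-coding gene 21.8% were. Those 2845 peaks were unlike the near ones in position. Of them 72.4% were intronic and 10.6% intergenic, whereas 3 of the 4 near peaks were intergenic. The counts of 4 of 4 (Wilson interval 51.0 to 100%) and 0 of 6 (0 to 39.0%) are a description of 10 peaks. A limit of 10 kb would have put the upstream Nkx2-5 peak, with 38.8% multi-copy words, among the near ones. With its GC content of 47.0%, below the 47.5% of the upstream Isl1 peak, the groups would then overlap in GC content. Among the nearest peaks of the genes with none within 100 kb, that of Tbx20 was also free of multi-copy words.

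**Figure D4:**
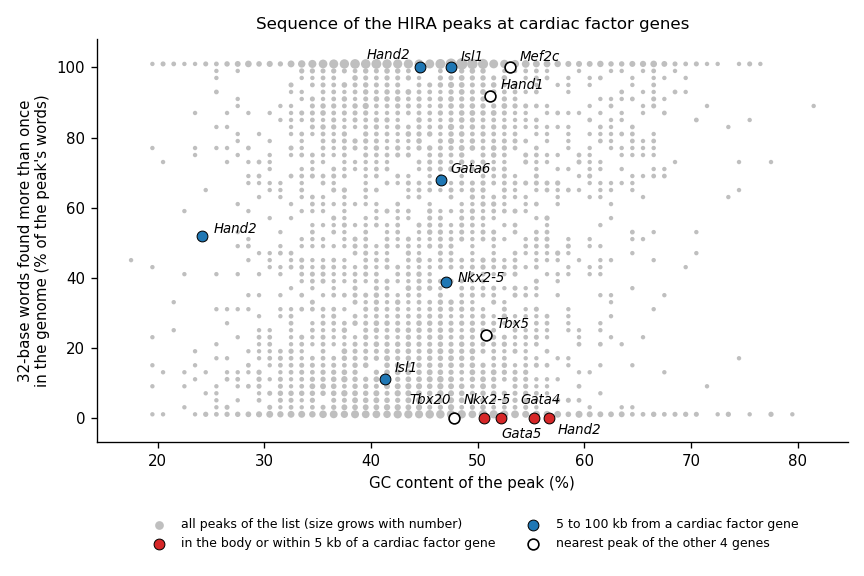
GC content of each peak (x axis, %) and the share of its 32-base words found more than once in the genome (y axis, %). Grey dots are all 6624 peaks in bins of 1 by 2 percentage points, red points the 4 peaks within 5 kb of a cardiac factor gene, blue points the 6 at 5 to 100 kb and open points the nearest peaks of Tbx5, Tbx20, Hand1 and Mef2c. The red points lie together at 0 on the y axis, between 50.6 and 56.7% GC.

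Over all 10 peaks, the median width and GC content were near those of the list, and the median soft-masked share was lower. The median width was 172 bases against 185, the median GC content 47.3% against 45.6%, and the median soft-masked share 56.1% against 82.2%. The value of the list lay inside the order-statistic interval of the 10 peaks for each of these (164 to 295 bases, 41.3 to 55.2% and 13.4 to 100%). All 10 genes are on autosomes, and over the autosomal peaks of the list the median soft-masked share was 75.1%. A match to GAGAGAGA or TCTCTCTC was present in 3 of 10 peaks (Gata4, Gata6 and the upstream peak of Nkx2-5) against 16.0% of the list, and a match to CACACACA or TGTGTGTG in 1 of 10 against 13.4%. The whole peak was soft-masked in 2 of 10 against 42.6%, and the midpoint was intergenic in 8 of 10 against 54.6%. The 8 intergenic peaks, the promoter peak of Gata4 (within 1 kb of an annotated transcript start) and the intronic peak in Hand2os1 account for all 10, and no midpoint was in an exon.

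A tandem repeat of 15 or more bases was present in 6 of the 10 peaks, against 44.2% of the list, and in 5 of these 6 it reached the first or last base of the peak. In the list this was so for 77.8% of the peaks with such a repeat and 34.3% of all peaks. At these edges only a part of the repeat was inside the peak. The GA repeat at Gata4 ran on to 39 bases in the genome, of which 16 were in the peak. The CA repeat at Nkx2-5 was 44 bases long with 21 in the peak, the GTG repeat at Isl1 69 with 40 and the repeat at Gata6 54 with 36. The repeat of the far Hand2 peak was the least cut of the 5. The upstream peak of Nkx2-5 was the exception, with its repeats inside the peak.

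The peaks were also searched for short words that resemble binding sites of the factors themselves. Searched on both strands were the word AGATAA for GATA factors, the word TNAAGTG for the NK2 homeodomain, the word AGGTGT for T-box factors, CTA and TAG with 4 bases between them for MEF2 factors, the E-box CATCTG for HAND factors and the word CTAATG for ISL1. Any of the 6 was present in 2 of the 10 peaks (Wilson interval 5.67 to 51.0%), against 35.8% of the list, which lies inside that interval. The upstream Nkx2-5 peak held 1 GATA word, and the upstream Isl1 peak, in multi-copy sequence, held 1 word each for NK2, HAND and ISL1. In the list the GATA word was present in 9.36% of peaks, the NK2 word in 7.22%, the T-box word in 7.73%, the MEF2 word in 1.84%, the HAND word in 793 of 6624 and the ISL1 word in 6.76%. The 4 near peaks held none of these letters.

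Other genes were counted in the same way. Of 14 relatives (Gata1 to Gata3, Tbx1, Tbx2, Tbx3, Tbx18, Mef2a, Mef2b, Mef2d, Nkx2-3, Nkx2-6, Twist1 and Twist2), 0 had a peak inside or less than 5 kb away and 5 had one within 100 kb, where all coding genes gave 11.1% and 45.7%. Their median distance was 118 kb. The nearest of them was 8.09 kb from its peak. A second list held 21 partners of the core factors and other regulators of heart development. Of these, 7 had a peak in the body, none had one only in the 5 kb beyond it, and 15 had one within 100 kb, where all coding genes gave 8.90% in the body, 11.1% within 5 kb and 45.7% within 100 kb. Their median distance was 14.8 kb, and they were longer than other coding genes (median 28.1 against 17.4 kb). The 7 were Prrx1, Prdm16, Smyd1, Tead1, Myocd, Zfpm2 and Nfatc1. Myocd, a coactivator of SRF in muscle, and Tead1, a partner of YAP, had a peak at a promoter that was free of multi-copy words (GC content 51.2% and 77.8%). Zfpm2, the cofactor of GATA4 also called FOG2, held 3 peaks, as did Tead1. Where a gene held several peaks, the first by position was described. Multi-copy words made up 75.7% of the words of that peak at Zfpm2, 34.4% at Smyd1 and 2.56% at Prrx1. The peaks in Prdm16 and Nfatc1 held none. Whether the lists differ from each other or from other genes was not tested.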

How the data were processed

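Per the study's methods, the authors aligned the reads of the ChIP and input libraries with Bowtie2 to mm10 and called peaks with MACS in Strand NGS. Per the file headers, peaks were called against input with a p-value cutoff of 0.001, a fragment length of 200 bases and enrichment limits of 5 and 50. The methods give a stricter cutoff, and which one made the list is unknown. The deposited list holds chromosome, start and end of 6624 peaks and no score. Reads were not analysed here, so the depth is unknown.

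Positions, counted from 1, were compared with GRCm38.p6 and GENCODE M21, using Python 3.11.15 with numpy 2.4.6, pandas 2.3.3, scipy 1.17.1 and numba 0.67.0. Distance was taken from the gene body (0 inside it), or for side and class from the peak midpoint, and a peak was counted once for each gene. Promoter meant within 1 kb of a transcript start. Each 32-base word of a peak was counted on both strands of 21 chromosomes. Searches and counts were checked on simulated data. The genes, bands and lists were chosen with earlier results of these data known, and no p-value was computed. Named were all 10 genes, their peaks within 100 kb, otherwise the nearest peak, and other listed genes that had one inside or less than 5 kb away. Sequences were to be printed for peaks within 25 kb and for nearest peaks where useful. The upstream Hand2 peak was added after its values were seen. Of the items named by these rules or examined, 1 gene and 1 sequence are not reported here. No expression data were analysed, so the labelled tissue could not be checked against markers.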

Additional observations from a re-analysis of the deposited data

How the results depend on the processing

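Of 51 recalculated summaries, 46 stayed within 1.5 times (counts) or within the 95% interval (shares and medians) of the value reported, and 5 did not. With only peaks wider than the median, the peaks within 100 kb fell from 10 to 4, the genes with a peak within 5 kb from 4 to 1, and the median distance rose from 78.0 to 177 kb. A window of 50 kb held 6 peaks and one of 200 kb held 17. The share of peaks free of multi-copy words was 40.0%, and 25.0 to 66.7% over the other windows and the wider peaks. With RefSeq gene bodies 7 genes had a peak within 100 kb. The alternatives on multi-copy words and on the longest coding transcript were added after the data were seen. Of 50 recalculated distances of single genes, 10 moved by over 1.5 times. Width is not a measure of binding, and the list allows no stricter cutoff by signal. No paired analysis was possible because only a single immunoprecipitation was made. With 10 peaks, shares carry wide intervals. Soft-masked and multi-copy shares were lower in the 4 peaks within 5 kb than in the 6 at 5 to 100 kb. No steady change with distance was seen, as Tbx20 peaks at 146 and 199.7 kb held no multi-copy word. The cause of the difference was not tested.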

Other observations

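Several regulators of heart development outside the 10 genes carried peaks of the same single-copy kind. Foxc2 and Foxc1, forkhead factors of the outflow tract, had their nearest peak at 6.56 and 8.57 kb from the gene, both free of multi-copy words (GC content 66.3% and 47.8%). The nearest peaks of Prdm16 and Nfatc1, in introns, were also free of them (GC content 52.8% and 54.0%). In contrast, the nearest peak of Hey2, a Notch target, lay 7.54 kb away with 43.9% of its words multi-copy. These genes come from the list of partners and regulators, and those with no peak within 5 kb were picked after their values were seen. No test was run on them.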
